A study of Mus musculus with 2 samples.

Results

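The genes described here are 48 genes of the cell cycle and of DNA replication, chosen by name: 7 cyclins and kinases of G1, 18 genes of replication (S phase) and 23 genes of mitosis or of chromatin in dividing cells. Their RNA was compared between cells labelled as type 1 invariant natural killer T (NKT) cells and cells labelled as conventional CD4 T cells. Both are given as mouse lymph node cells that were sorted magnetically or by fluorescence. Biotin-labelled cRNA from 0.55 µg of total RNA of each population was put on 1 Illumina bead array for mouse, a chip that reads each transcript with 1 or more probes. Both samples were labelled as female, and strain, age, number of animals and any treatment are not given in the sources used here. Each group held 1 array, which allows no test, and all differences are described by size. Of the 48 genes, 33 had a named probe in the deposited value table (5 of G1, 16 of replication and 12 of mitosis), with 54 probes among 11155 named probes for 8116 genes. The other 15, among them Cdk4, Cdk6, Mki67, Ccnb1 and Aurkb, had no named probe there and were not analysed.

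All values are log2 signals of that table, and a difference is the library labelled invariant NKT minus the library labelled conventional CD4 T, called the NKT-labelled and the CD4-labelled library from here on. A gene stands at its brightest probe and counts as detected in a library where any of its probes reached a log2 signal of 7.83. That level is the lowest signal of the CD4-labelled library with a deposited detection p under 0.01, and it was applied to both libraries. The detection calls of the NKT-labelled library were not used for it. Marker genes followed the NKT label: all 8 listed invariant NKT genes were 2-fold or more higher as measured (7 with Klrb1b at its bound of 1.56-fold), such as Tbx21 at 11.99 in the NKT-labelled library and 8.61 in the other, and T cell genes were near equal (median difference 0.03 over 5 genes). The other label was not borne out. The CD8 beta chain gene Cd8b1 had 9.33 in the NKT-labelled library and 15.60 in the CD4-labelled library. Itgae, the other listed CD8 T cell marker measured, had 7.76 and 13.45 in that order. The CD4-labelled library thus cannot be read as CD4 T cells alone. Cd4 itself had 8.998 in the NKT-labelled library and 9.61 in the CD4-labelled one. The Y-linked gene Eif2s3y was detected in both, at 8.998 in the NKT-labelled library and 11.55 in the other, although both samples are labelled female. The deposited tables also conflict: the value column of the NKT-labelled library followed its non-normalized column with a rank correlation of only 0.822 across probes, against 1 for the other library. It followed the non-normalized column of the CD4-labelled library just as closely (0.823). None of the 33 members was 2-fold apart in those signals, with log2 differences of -0.20 to 0.34. Every difference below therefore rests on the value table and on the labels.

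Division of a T cell is prepared in G1, where D-type cyclins with Cdk4 and Cdk6, and cyclin E with Cdk2, inactivate the retinoblastoma protein and release E2F transcription factors. E2F then drives the genes of DNA synthesis, whereas many mitotic genes are induced later through the MuvB complex with B-Myb and FoxM1, which acts at a promoter element called the CHR. Resting T cells of lymph nodes express most of these genes weakly, and invariant NKT cells are known for a memory-like phenotype.

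Most of the 33 genes were higher in the NKT-labelled library. At 2-fold or more, 8 were higher (24.2%), namely Ccnd2, Ccnd3, Mcm5, Tyms, Tk1, Fen1, Birc5 and Hmgb2, where 10.2% of all 7278 genes detected in 1 or both libraries were. Only Rfc4 was 2-fold or more lower (3.03%), against 11.1% of all detected genes. At any size 27 of the 33 (81.8%) were higher, where 46.1% of all detected genes were. The median difference was 0.59, beside -0.07 for all detected genes. All 33 were detected in at least 1 library. Of these, 7 were detected only in the NKT-labelled library, where a difference upward is forced, and 2 only in the other. Over the 24 members detected in both, 7 were 2-fold or more higher (29.2%, beside 9.06% of 6017 genes) and 1 was lower (4.17%, beside 10.7%), with a median of 0.62. At any size 20 of those 24 (83.3%) were higher, beside 46.1% of the 6017 genes. With background subtracted on the linear scale, 17 members were 2-fold or more higher and 2 lower, beside 17.8% and 21.0% of all detected genes. In the non-normalized signals put through neqc, an alternative source described below, no member was 2-fold apart. Of all detected genes only 0.0137% were 2-fold or more higher there and 0.0137% lower, so few genes of any list could pass. With neqc 16 of the 33 members changed sign, among them 5 of the 9 past 2-fold in the value table (Hmgb2, Tk1, Fen1, Mcm5 and Rfc4). The neqc differences of those 16 lay between -0.40 (Cdk1) and 0.31 (Rfc4). How many of all detected genes changed sign was not counted, so the 16 cannot be read as particular to the members. These shares describe 2 arrays and a list chosen with earlier results known.

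**Figure D1:**
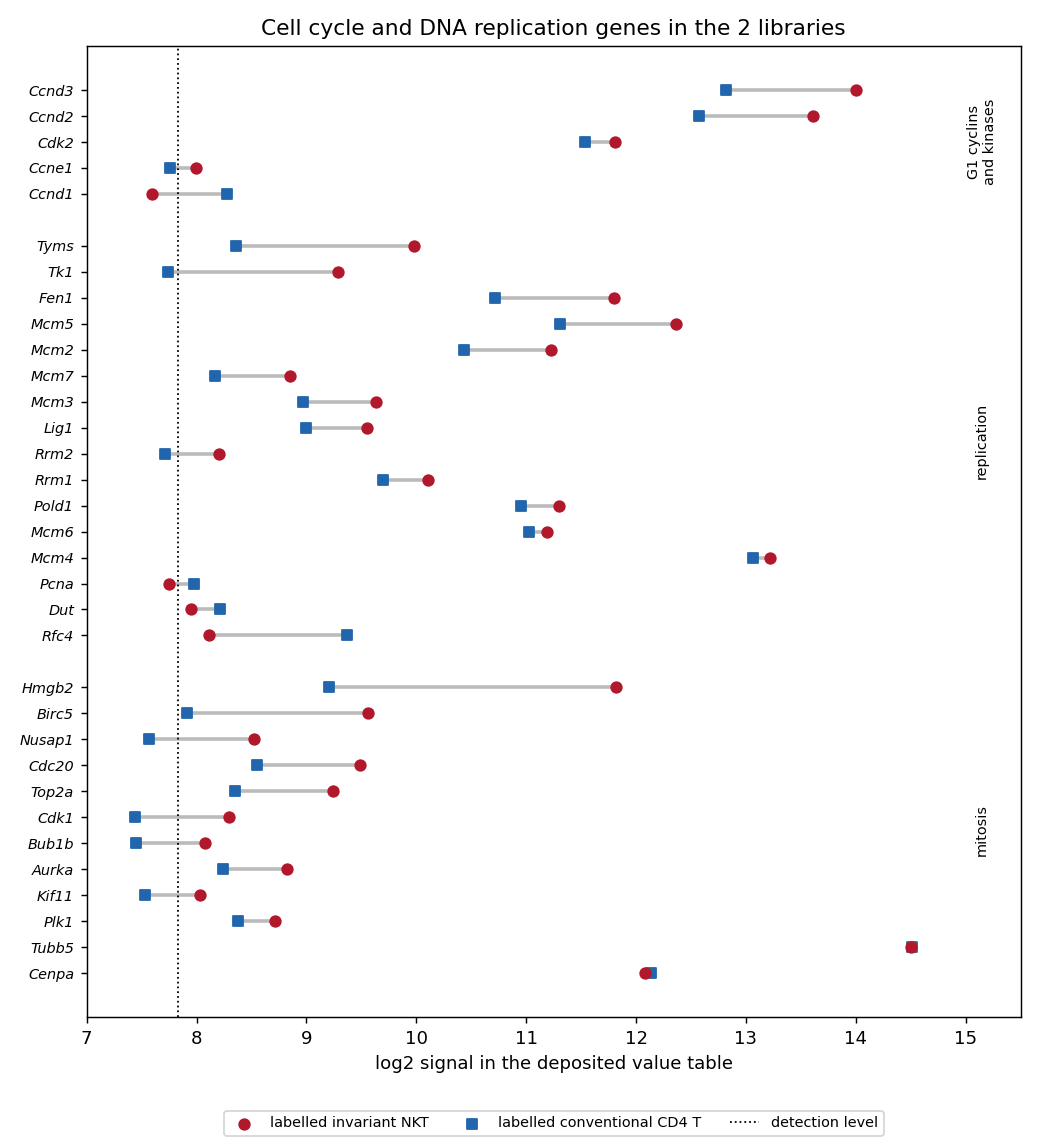
Log2 signal (horizontal axis) of each of the 33 genes at its brightest probe in the NKT-labelled library (red circles) and the CD4-labelled library (blue squares), by group and ordered by their difference; the dotted line is the detection level of 7.83. The red circle lies to the right for 27 genes, with the widest gap at Hmgb2, and Rfc4 shows the widest gap the other way.

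The only measure of error came from genes with several probes. Between probes of 1 gene the log2 difference had an SD of 0.60, from 1907 genes with a pair of detected probes, and it covers neither animals, sorts nor arrays. A 2-fold change is a log2 difference of 1, so genes on either side of that line were not distinct: Ccnd2 (1.04), Mcm5 (1.05) and Fen1 (1.08) lay just past it, and Nusap1 (0.96) and Cdc20 (0.93) just short of it. Hmgb2 (2.61) lay beyond that spread, but it had 1 probe, so the spread of its own probes is unknown.

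Among the G1 genes, the D-type cyclins differed in direction at their brightest probes, with Ccnd1 close to the detection level. Ccnd3, the D cyclin that thymocytes and lymphocytes depend on, had a log2 signal of 14.00 in the NKT-labelled library and 12.82 in the CD4-labelled library, a 2.27-fold difference. Ccnd2, another D cyclin of lymphocytes, had 13.61 and 12.58 in the same order, 2.06-fold higher. Ccnd1, which lymphocytes hardly use, went the other way: it was detected only in the CD4-labelled library, with 7.60 in the NKT-labelled library and 8.28 there, so that it was at least 1.36-fold lower. That bound is a log2 difference of -0.45, within the SD of 0.60 between probes of a gene. The second probe of Ccnd1 differed by -0.10 and was below the detection level in both libraries. Cdk2, the kinase partner of cyclins E and A, was near equal at its brightest probe, with 11.81 and 11.53 (difference 0.28). Its cyclin Ccne1 lay close to the detection level in both libraries, at 7.99 in the NKT-labelled library and 7.76 in the other. The median over the 5 genes was 0.28. Of these, 2 were 2-fold or more higher (40.0%) and 0 lower, beside 10.2% and 11.1% of all detected genes.

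Of the 16 replication genes, 13 (81.25%) were higher in the NKT-labelled library, beside 46.1% of all detected genes. The replication median was 0.52, with differences from -1.26 to 1.62. Over the 13 detected in both libraries, 11 were higher (84.6%, beside 46.1% of genes detected in both), with a median of 0.55. The 6 subunits of the MCM helicase, which unwinds DNA at the fork, were all higher at their brightest probe, with a median of 0.67. Mcm5 had a log2 signal of 12.36 in the NKT-labelled library and 11.31 in the CD4-labelled library, 2.07-fold higher. Mcm2 had 11.23 and 10.44 in that order, Mcm3 9.63 and 8.97, and Mcm7 8.85 and 8.17, which are folds of 1.73, 1.58 and 1.60. Mcm4 and Mcm6 were nearly equal, with 13.22 and 13.06 for Mcm4 and 11.19 and 11.03 for Mcm6. The subunits work as 1 ring, and their differences ran from 0.16 to 1.05, beside an SD of 0.60 between probes of a gene.

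The promoters of Mcm5 and Mcm6 are shown because both carry the same E2F run while their differences were the largest and nearly the smallest of the 6. E2F words were searched as TTTCCCGC, TTTCGCGC, TTTGCCGC and TTTGGCGC on both strands in RefSeq promoters of build GRCm38.p6, from 250 bases before to 50 after each start. The Mcm5 stretch is chr8:75109308-75109407 on the plus strand, and the Mcm6 stretch is chr1:128359744-128359843 on the minus strand. Both are 5′ to 3′, with E2F words in capitals.
Mcm5: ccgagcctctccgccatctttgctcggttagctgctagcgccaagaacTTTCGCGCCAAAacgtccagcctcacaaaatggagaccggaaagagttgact
Mcm6: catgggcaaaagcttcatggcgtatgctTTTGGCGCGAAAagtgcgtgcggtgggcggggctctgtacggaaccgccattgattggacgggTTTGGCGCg
In each, an overlapping pair of words forms a run of 12 bases, and TTTCGCGCCAAA of Mcm5 is the reverse complement of TTTGGCGCGAAA of Mcm6, which also holds another E2F word. That run was in 4 of 32851 promoters (0.0122%), and Mcm5 and Mcm6 were the only members among them. An E2F word was in 6 of 19 promoters of the measured replication genes (31.6%), in 1 of 12 of the mitosis genes (8.33%) and in 2.26% of all promoters, or 3.98% of those of genes on the value table. A word is a description of the sequence and not evidence that a factor binds there.

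The genes that supply nucleotides held the largest differences of the replication group. Tyms, thymidylate synthase, had 9.98 in the NKT-labelled library and 8.36 in the CD4-labelled library, 3.07-fold higher at its brightest probe. Tk1, the thymidine kinase of the salvage route, was detected only in the NKT-labelled library, at 9.29 against 7.74, at least 2.74-fold higher. Both thymidylate genes thus lay past 2-fold at these probes, but neither did at its second probe. The second probe of Tk1 was below the detection level in both libraries, and that of Tyms in the CD4-labelled library. The large subunit of ribonucleotide reductase, Rrm1, had 10.11 and 9.70, a fold of 1.33. Its small subunit Rrm2, which is made mainly in S phase, had 8.21 in the NKT-labelled library and 7.72, below the detection level, in the other, at least 1.30-fold higher. Dut, which removes dUTP, had 7.95 and 8.22 (difference -0.26).

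The enzymes of the replication fork split. Fen1, which trims flaps from lagging strand fragments, had 11.80 in the NKT-labelled library and 10.72 in the CD4-labelled library, 2.12-fold higher. Lig1, the ligase that seals those fragments, had 9.55 and 8.997 (fold 1.47), and Pold1, the catalytic subunit of polymerase delta, had 11.30 and 10.96 (fold 1.27). Rfc4, a subunit of the clamp loader, was the exception, with 8.11 and 9.37, 2.39-fold lower. Pcna, the clamp that it loads, had 7.75 in the NKT-labelled library and 7.97 in the other, both close to the detection level. Rfc4 and Pcna had 1 probe each, so no second reading was available for the lower pair.

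Of the 12 mitosis genes, 10 were higher in the NKT-labelled library (83.3%, beside 46.1% of all detected genes), with a median of 0.74. Of these 10, 4 were detected only in that library, where a difference upward is forced, and with them at their bounds the median was 0.52. Over the 8 detected in both libraries, 6 were higher (75.0%, beside 46.1% of genes detected in both), with a median of 0.74. None of the 12 was 2-fold or more lower, beside 11.1% of all detected genes. Hmgb2, a DNA-bending chromatin protein abundant in dividing cells, had 11.82 in the NKT-labelled library and 9.20 in the CD4-labelled library, 6.11-fold higher. Its signed difference was above those of 98.7% of all detected genes. Birc5, survivin of the chromosomal passenger complex, had 9.56 and 7.92, 3.12-fold higher. These 2 were the mitosis genes past 2-fold (16.7%, beside 10.2% of all detected genes).

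The next genes were higher by less than 2-fold. Cdc20, which activates the anaphase-promoting complex, had 9.48 in the NKT-labelled library and 8.55 in the CD4-labelled library (fold 1.91). Top2a, which untangles sister DNA, had 9.24 and 8.35 (fold 1.86), and the spindle kinase Aurka had 8.82 and 8.24 (difference 0.59). Plk1, another mitotic kinase, had 8.71 and 8.38 (fold 1.26). Another 4 genes were detected only in the NKT-labelled library. Cdk1, the kinase that starts mitosis, had 8.29 there and 7.44 in the other library, at least 1.38-fold higher. Nusap1, which bundles spindle microtubules, had 8.52 and 7.56, at least 1.61-fold higher. Bub1b, of the spindle checkpoint, was at least 1.18-fold higher, and Kif11, the motor that separates spindle poles, at least 1.15-fold. The 2 remaining genes were near equal in both libraries: Tubb5, a beta tubulin of interphase cells too, had 14.51 and 14.52, and Cenpa, the histone H3 variant of centromeres, had 12.08 and 12.14.

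The word TTTGAA, the core of the CHR, was in the promoters of 9 of the 12 mitosis genes (75.0%), of 2 of 19 promoters of replication genes (10.5%) and in 17.9% of all promoters, or 11.9% of those of genes on the value table, counting both strands. The bases just before the start are shown for Hmgb2, the gene with the largest difference, and for Cdc20 and Cdk1, where the word lies close to the start. They are chr8:57511743-57511842 on the plus strand for Hmgb2, chr4:118437344-118437443 on the minus strand for Cdc20 and chr10:69352913-69353012 on the minus strand for Cdk1, in GRCm38.p6 from RefSeq, with TTTGAA in capitals.
Hmgb2: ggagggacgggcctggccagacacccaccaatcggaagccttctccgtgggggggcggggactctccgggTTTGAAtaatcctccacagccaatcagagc
Cdc20: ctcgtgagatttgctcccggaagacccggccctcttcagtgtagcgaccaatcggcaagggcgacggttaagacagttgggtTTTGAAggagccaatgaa
Cdk1: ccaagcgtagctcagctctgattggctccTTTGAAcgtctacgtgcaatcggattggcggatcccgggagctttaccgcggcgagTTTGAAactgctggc
Cdk1 holds 2 such words in the stretch, and Hmgb2 and Cdc20 hold 1 each. The word was also in the promoter of Cenpa, whose signals were near equal, and it was not among the 300 bases searched for Birc5. In no measured member did it overlap an E2F word. Here too a word describes the sequence and is not evidence that a factor binds there.

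Several of these genes had more than 1 probe, which gave the only check of a difference within the arrays. Of the 11 members with 2 or more probes, 8 had all probes on the same side of 0, and the second brightest probe had the sign of the brightest in all 11. For Ccnd1, Mcm4, Rrm2 and Tk1 that second probe was below the detection level in both libraries, so its sign is no check. The same shares over all genes with several probes were not counted. Birc5 was 2-fold or more higher at all 3 probes, with log2 differences of 1.64, 1.87 and 1.17. The 4 probes of Cdc20 were all higher, by 0.35 to 0.93, and the 4 probes of Cdk2 by 0.28 to 1.23. The Cdc20 probe of 0.35 was below the detection level in both libraries. The probes of Ccnd3 gave 1.18 and 3.53, the second being below the detection level in the CD4-labelled library. For Tyms the brightest probe gave 1.62 and the others 0.35, -0.07 and -0.49. The Tyms probes of -0.07 and -0.49 were below the detection level in both libraries, so their signs carry little weight. The probes of Mcm6 gave 0.17, 0.66 and -1.55, and 1 of 3 probes of Lig1 gave -0.48. Of the 4 members past 2-fold that had a second probe, Ccnd3 and Birc5 were past it there too. Tk1 measured 0.16 at a second probe below the detection level in both libraries. The other 22 members had 1 probe.

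**Figure D2:**
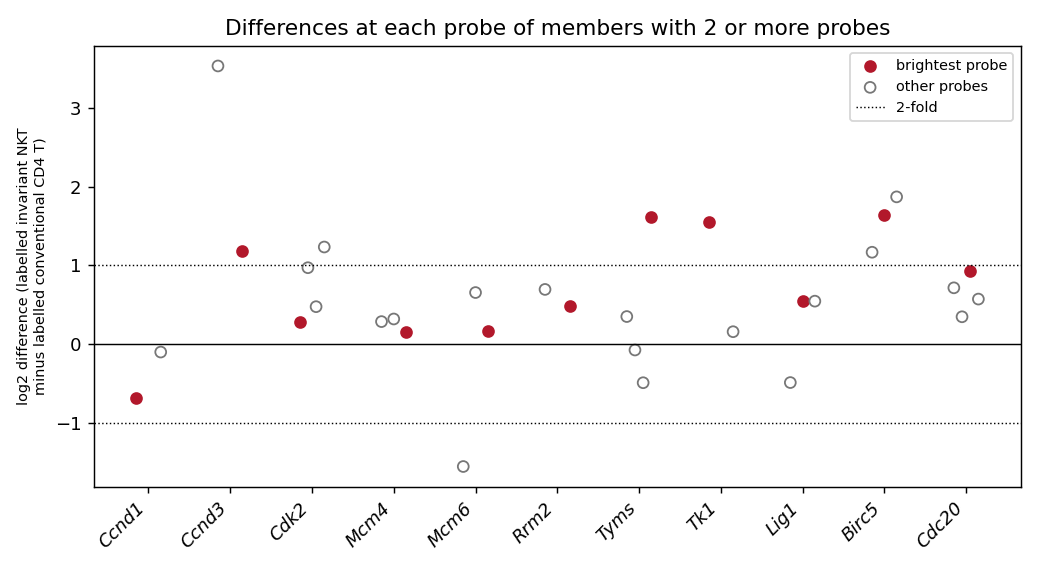
Log2 difference (vertical axis) at every probe of the 11 members with 2 or more probes, with the brightest probe in red and the others as open circles; dotted lines mark 2-fold. All probes of Birc5 lie above the upper line, whereas those of Tyms and Mcm6 lie on both sides of 0. The Tyms probes below 0 did not reach the detection level in either library.

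Other genes of the same pathways, from lists that were also drawn up with earlier results known, did not all follow the members. Among E2F, Rb and MuvB regulators, 3 of 15 detected genes were 2-fold or more higher (20.0%) and 4 lower (26.7%), with a median of -0.13. The shares of all detected genes were 10.2% higher and 11.1% lower. E2f1, an activator of S phase genes, had 9.69 in the NKT-labelled library and 8.24 in the CD4-labelled library, 2.74-fold higher. E2f5, a mainly repressive E2F, had 8.14 and 9.79, 3.13-fold lower. Among the pocket proteins, which hold E2F in check, Rbl1 (p107) had 8.66 and 10.28, 3.06-fold lower, and Rb1 had 9.53 and 11.04, 2.84-fold lower, although its second probe differed by only -0.32. Rbl2 (p130), named after its value was seen, went the other way with a difference of 0.60. Mxd4, a repressor that competes with Myc for Max, was detected only in the NKT-labelled library and was at least 3.85-fold higher. E2f3, an activator, and E2f4, a repressor, were named after their values were seen and differed by 1.25 and -1.43.

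Cohesin and condensin genes, which hold and compact sister chromatids, were mostly lower, with a median of -0.74. Of 9 detected genes 8 were lower, 4 of them by 2-fold or more as measured (3 with Smc3 at its bound), and 0 were 2-fold or more higher. Of all detected genes 11.1% were 2-fold or more lower, 10.2% were 2-fold or more higher and 46.1% were higher at any size. The cohesin subunit Stag1 had 8.63 in the NKT-labelled library and 10.06 in the CD4-labelled library, 2.68-fold lower. Stag2, its paralog, had 11.10 and 12.35, 2.37-fold lower, and its second probe differed by -0.73. Pds5b, a regulator of cohesin, was 2.03-fold lower, and Smc3, a core subunit detected only in the CD4-labelled library, was at least 1.84-fold lower. Ncapd3 of condensin differed by -0.74. Cohesin also acts on chromatin loops of cells that do not divide.

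The lists closest to the members in function had medians near that of all genes. Of 11 detected genes of origin licensing and firing, 1 was 2-fold or more higher (9.09%) and 2 were lower (18.2%), with a median of 0.01. The shares of all detected genes were 10.2% higher and 11.1% lower. Mcm10 was at least 2.19-fold higher at its brightest probe, and its second probe differed by 0.445. Cdc45 of the active helicase was at least 1.72-fold higher, and Orc6 differed by 0.70. Orc5, an origin recognition subunit, was 2.09-fold lower and Dbf4, the activator of the Cdc7 kinase, 2.03-fold lower. None of 19 further genes of fork and repair synthesis was 2-fold apart (median 0.03): Chaf1a, Uhrf1 and Asf1b differed by 0.91, 0.75 and 0.72, and Rpa1 and Dnmt1 by -0.93 and -0.91.

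Among checkpoint and CDK control genes, 0 of 7 were 2-fold or more higher and 1 was lower (14.3%, median 0.04). For this list and those that follow, the shares of all detected genes were 10.2% higher and 11.1% lower. Ccng2, a cyclin of arrested cells, was 2.20-fold lower, the phosphatase Cdc25b, detected only in the CD4-labelled library, was at least 1.71-fold lower, and Cdc25a differed by 0.63. Atm and Ccng1 differed by 0.44 and -0.43 and had probes of opposite sign. Of 14 genes of the anaphase-promoting complex and spindle checkpoint, 0 were 2-fold or more higher and 1 was lower (7.14%, median -0.03). Cdc23, a subunit of that complex, was 2.88-fold lower. Anapc5, Cdc16 and Cdc27 differed by -0.67, -0.67 and -0.62, and Fzr1, its activator in G1, by 0.52. The second brightest probe of Anapc5 had the opposite sign (0.26), and that of Fzr1 differed by 1.13, past 2-fold. Of 13 kinetochore, spindle and cytokinesis genes, 1 was 2-fold or more higher and 1 lower (7.69% each). Their median was 0.47, but it was -0.13 over the 9 detected in both libraries. Prc1, which builds the central spindle, was 2.33-fold higher, and Kif23, a motor of the same structure, was 3.29-fold lower. Cdca8 was at least 1.47-fold and Kif2c at least 1.16-fold higher, and Ckap5 differed by -0.73.

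**Figure D3:**
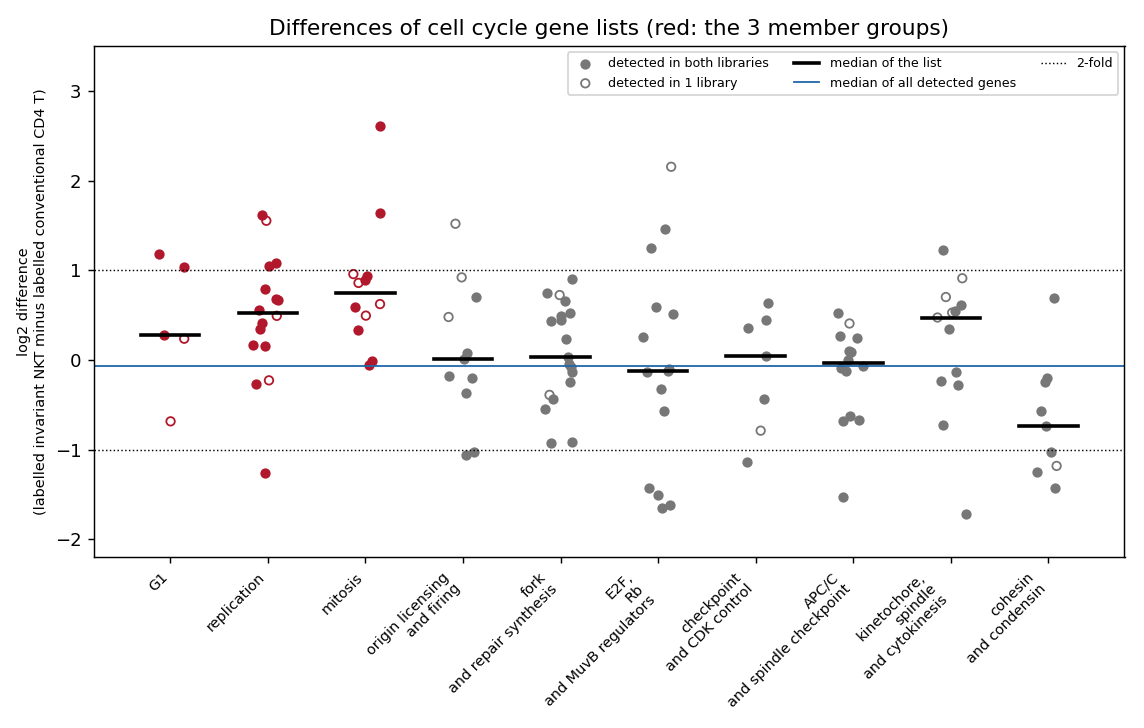
Log2 difference (vertical axis) of each detected gene in the 3 groups of members (red) and in 7 further cell cycle lists (grey); filled points were detected in both libraries, open points in 1, black bars are list medians, the blue line is the median of all detected genes and dotted lines mark 2-fold. The medians of replication and mitosis members lie at 0.52 and 0.74, and that of cohesin and condensin at -0.74.

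Markers of other cell types differed between the libraries as well. Fewer cells of a type cannot be told apart from less RNA per cell in such samples. Of the 4 detected erythroid markers, 3 were 2-fold or more higher in the NKT-labelled library, and the summed linear signal of the 5 erythroid genes on the table was 76369 there and 3323 in the other library. All 4 detected myeloid markers were higher (sums of 5690 and 1888 over 6 genes), as were all 6 hepatocyte markers (12962 and 915). Those 6 were detected only in the NKT-labelled library, although both samples are given as lymph node cells. B cell markers ran the other way, with 0 of 2 higher and sums of 611 and 1279. Plasma cell markers summed to 5410 and 2941 over 2 genes, with 0 past 2-fold, and germinal centre markers to 1471 and 2523 over 3. Naive T cell markers, 4 of 4 lower, summed to 1239 and 33299, and the 2 CD8 T cell markers to 858 and 60833. The part of any of these cells in the differences of the members was not tested.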

How the data were processed

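RNA of 2 sorted populations was measured on 1 array each, and groups were taken from the cell type in the labels. GenomeStudio 2009.2 is named in the submitters' processing notes. The authors deposited a non-normalized table of probe intensity, with a detection p-value beside each intensity per the file headers, and a value table of log2 signals. Background remains in both, which understates folds of dim genes. The sorted columns of the value table were equal within 0.0003, as quantile normalisation leaves them. Neither its normalisation nor its choice of probes is stated there.

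The value table was the main source, since its columns are named by sample. The non-normalized signals, put through neqc (limma 3.58.1, R 4.3.3, offset 16), were an alternative. Probe names came from the platform annotation. The non-normalized table names no genes, so members without a named probe could not be looked up there. A gene with no probe at the detection level in 1 library has "at least" before its fold, taken against 7.83 or the dim probe's own value, whichever was higher. With 1 array per group no p-value was computed, and calls were made at 2-fold. All 48 members could be named, and from each further list up to 5 detected genes of the largest size. Members and lists were chosen with earlier results of these data known. Promoters came from RefSeq for GRCm38.p6, and 30 of the 33 measured members had an entry. The number of arrays limits the precision. Alternatives were the detection level, the detection filter, the probe rule, background subtraction, bounds, genes detected in both libraries and a 1.5-fold line.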

Additional observations from a re-analysis of the deposited data

How the results depend on the processing

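With the non-normalized signals put through neqc, the medians became -0.026 for all 33 members, -0.077 for mitosis, 0.004 for replication and 0.02 for G1. Every count past 2-fold became 0, in members of G1, replication and mitosis alike. Of the members past 2-fold, 5 changed sign there: Mcm5 to -0.041, Tk1 to -0.37, Fen1 to -0.11, Hmgb2 to -0.069 and Rfc4 to 0.31. The share of all detected genes that changed sign was not counted. With neqc 0.0137% of all detected genes passed 2-fold in each direction, so few genes of any list could pass there. With background subtracted, 17 members were 2-fold or more higher and 2 lower, beside 17.8% and 21.0% of all detected genes. The mitosis median was then 1.63 with 9 genes higher, and 1 G1 gene, Ccnd1, was lower. At 1.5-fold, 17 of the 33 members were higher and 2 of the 33 lower (7 replication and 8 mitosis genes higher, 1 G1 gene lower). Of all detected genes, 20.0% were higher and 23.5% lower at that line. With probes of a gene averaged, 2 replication genes stayed 2-fold or more higher. The G1 median was 1.04 over the 3 genes detected in both libraries. Under a detection p of 0.05, no detection filter and bounds, all 12 medians and counts kept their direction, with medians moving less than the within-gene SD and counts within 1.5 times. No paired analysis was possible because each group holds 1 array, and leaving out a replicate was not possible either.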
